A study of Mus musculus with 54 samples.

Results

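The genes described here are the 9 genes App, Adam10, Bace1, Psen2, Ncstn, Aph1a, Psenen, Ide and Mapt, chosen by symbol out of the 54232 mouse genes counted in each library. All of them were found, each under 1 Ensembl identifier, and all passed the filter on low counts in every comparison. RNA of 54 libraries was sequenced after 14 days of daily intraperitoneal injection of Cmpd60, an inhibitor of the histone deacetylases HDAC1 and HDAC2, at 22.5 mg/kg, or of vehicle. Brain, kidney and heart came from wild-type male BL6 mice of about 20 months, with 6 Cmpd60 and 6 vehicle brains, 6 Cmpd60 and 5 vehicle kidneys, and 5 Cmpd60 and 6 vehicle hearts. A second set of brains came from male mice on the BL6 background aged 6 to 7 months, either APPSWE-1349 mice, which carry a transgene for the 695-residue form of human APP with the Swedish mutation, or littermates without it. This set held 5 vehicle and 4 Cmpd60 APPSWE brains and 5 vehicle and 5 Cmpd60 littermate brains, and 1 more APPSWE library, s139, whose treatment the labels and the study's table heading give differently, was left out of every group. All mice were housed singly and fed regular chow. Kidney libraries were grouped by title and source name. Their treatment entries state the reverse, under which every Cmpd60 difference in the kidney would have the other sign.

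App encodes the amyloid precursor protein, a membrane protein that is cut along competing routes. Adam10, the main alpha-secretase of neurons, cuts within the amyloid peptide, whereas Bace1, the beta-secretase, cuts at its start, and gamma-secretase then releases the peptide from the membrane. Gamma-secretase is a complex of a presenilin, which is its catalytic subunit, with nicastrin (Ncstn), an APH1 protein and PEN-2 (Psenen). The insulin-degrading enzyme Ide breaks down the free peptide, and Mapt encodes tau, a microtubule-binding protein that aggregates in Alzheimer disease.

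The stretch of mouse App at which Bace1 cuts is shown because the Swedish mutation lies there in the human transgene, next to the start of the amyloid peptide. It spans codons 595 to 638 of the 695 codons of transcript App-201 in the GENCODE M1 annotation of NCBIM37, in which the App gene lies on the minus strand at chr16:84954685-85173952. The capitals mark the 2 codons that the Swedish mutation changes in the human gene, and the bases in lower case are the 42 codons of the longer amyloid peptide.
App: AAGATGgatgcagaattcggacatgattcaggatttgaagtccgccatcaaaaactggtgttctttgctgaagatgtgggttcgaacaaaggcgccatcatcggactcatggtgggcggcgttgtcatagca
Every feature counted here had a mouse Ensembl identifier. Whether reads of the human transgene were counted on mouse App was not tested.

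Each library held 23584609 to 57430113 reads on genes. Levels are given as CPM, read counts scaled to a common library size by TMM, set separately for the 20-month and the 6 to 7 month libraries. The 6 to 7 month brains varied far more than the 20-month brains, with a biological coefficient of variation of 0.729 against 0.114 in edgeR, and detected 15044 to 24821 genes. The 5 libraries with fewer than 17000 genes detected were s140 and s146 (APPSWE, vehicle), s141 (APPSWE, Cmpd60), s155 (littermate, vehicle) and s152 (littermate, Cmpd60), and the 6 comparisons of these brains were refitted without them for the 9 genes. Of the 54 fitted values 17 changed sign without them, 4 each for Psen2 and Aph1a, 2 each for Bace1, Ncstn and Psenen, 1 each for Adam10, Ide and Mapt and 0 for App, and those printed below are given both ways. The other pathway genes were not examined without these libraries. The 4 neuronal markers summed to 4737 to 5270 CPM in the APPSWE vehicle, 5010 to 5292 CPM in the APPSWE Cmpd60, 4492 to 4885 CPM in the littermate vehicle and 4671 to 5812 CPM in the littermate Cmpd60 brains. By this sum the APPSWE Cmpd60 and littermate vehicle brains did not overlap and the other pairs of groups did, and its part in the results was not tested. At 20 months the kidney marker Umod was at 2851 to 5167 CPM in kidney and at most 3.12 CPM elsewhere, and the heart marker Myh6 at 34347 to 43810 CPM in heart and at most 7.57 CPM elsewhere. The labels do not say that libraries came from separate mice, so p-values measure the spread between these libraries.

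In the vehicle-treated brains, the APPSWE transgenic and littermate mice were compared to see whether the genes of precursor processing and tau differed with the transgene. None of the 9 genes passed the threshold, an adjusted p-value below 0.05 by edgeR's quasi-likelihood test, beside 0.00862% of all genes tested. At an unadjusted p-value below 0.05 there was 1 of 9, Aph1a, beside 8.67% of all genes. Neither limma-voom nor DESeq2 called any of the 9.

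App was at 2087, 2182, 2287, 2296 and 2384 CPM in the APPSWE vehicle brains. In the littermate vehicle brains it was at 1950, 2123, 2214, 2224 and 2268 CPM. The groups overlapped, and App was higher in APPSWE brains by 0.06 on the log2 scale (SE 0.06, 95% interval -0.07 to 0.19, adjusted p = 0.886), a fold of 1.04. With the mean of both treatments, the difference was 0.03 (SE 0.05, 95% interval -0.06 to 0.13, adjusted p = 0.9999). The App count thus did not separate the genotypes and gave no check of the genotype labels. The share of reads that aligned nowhere overlapped too, at 1.02% to 2.47% in the assigned APPSWE libraries and 1.12% to 2.70% in the littermates. Prnp, the mouse gene whose hamster counterpart is known to supply the promoter of this transgene, differed by 0.01 (SE 0.07, adjusted p = 0.996).

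Among the gamma-secretase genes, Aph1a, which encodes a scaffold subunit, had the largest fitted difference. It was at 37.0, 37.1, 41.9, 79.0 and 87.7 CPM in the APPSWE vehicle brains. The littermate vehicle brains were at 25.9, 37.1, 40.9, 43.1 and 46.2 CPM. Only libraries s140 and s146 were above the littermate range, and both belong to the 5 libraries with few genes detected. The fitted difference was 0.55 (SE 0.20, adjusted p = 0.509 in edgeR) and fell to -0.12 without these 5 libraries. Psen2, one of the 2 mouse presenilins, was at 10.3 to 18.8 CPM in APPSWE brains and at 2.65 to 18.5 CPM in littermates, with a difference of 0.25 (SE 0.35, adjusted p = 0.928) that became -0.26 without these libraries.

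Nicastrin (Ncstn) was at 49.4 to 66.8 CPM in APPSWE and 46.5 to 68.9 CPM in littermate vehicle brains. Psenen was at 19.7 to 42.5 CPM against 20.1 to 33.0 CPM. The ranges overlapped for both subunits, with log2 differences of -0.06 (SE 0.16) and 0.01 (SE 0.22), and of -0.19 and -0.20 without the 5 libraries.

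The secretases that make the first cut also overlapped between genotypes. Adam10 was at 103 ± 3.41 CPM (SD, n = 5) in APPSWE and 99.9 ± 9.32 CPM (SD, n = 5) in littermate vehicle brains, a difference of 0.05 (SE 0.10). Bace1 was at 120 ± 19.5 CPM (SD, n = 5) and 131 ± 20.6 CPM (SD, n = 5), a difference of -0.13 (SE 0.12) that became 0.02 without the 5 libraries. Ide, at 45.7 ± 15.2 CPM (SD, n = 5) and 46.4 ± 11.9 CPM (SD, n = 5), differed by -0.02 (SE 0.21). Mapt was at 567, 603, 607, 643 and 653 CPM in APPSWE and at 551, 563, 577, 625 and 636 CPM in littermate vehicle brains. Tau mRNA therefore overlapped between the genotypes, with a difference of 0.06 (SE 0.07, 95% interval -0.08 to 0.19).

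**Figure D1:**
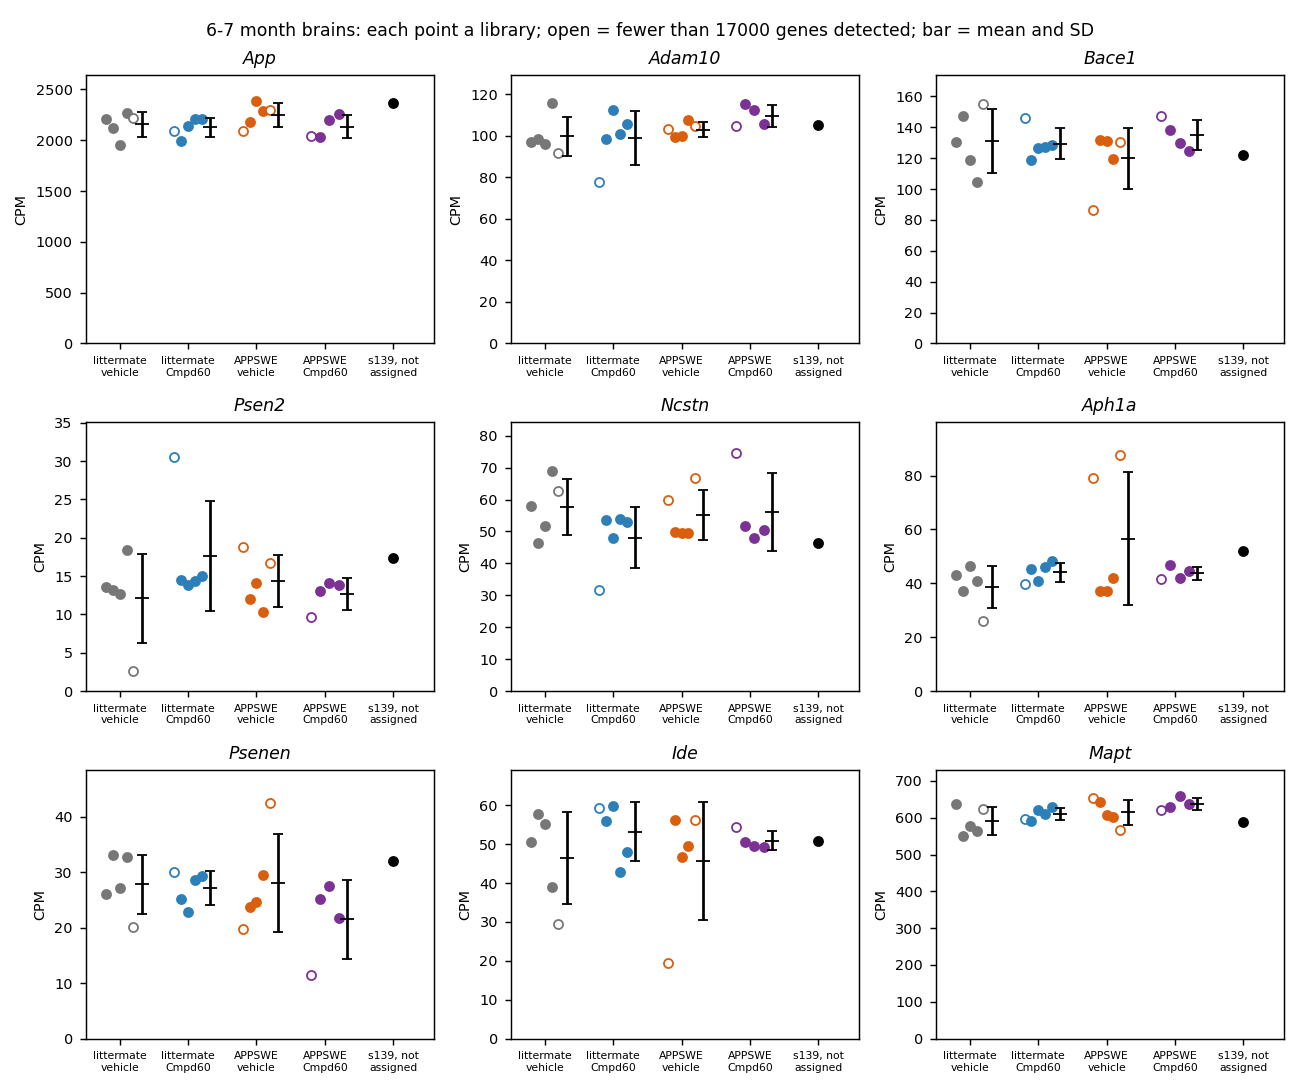
Levels of the 9 genes in the 6 to 7 month brains, in CPM on axes that start at 0, with each point a library, open points for the 5 libraries with fewer than 17000 genes detected, bars for the mean and SD of a group, and library s139 apart. App and Mapt lie close together in all groups, and the points farthest from their group for Psen2 (2.65 and 30.5 CPM) and Aph1a (79.0 and 87.7 CPM) are open points.

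Between genotypes in the Cmpd60-treated brains, 0 of 9 genes passed the threshold in edgeR, limma-voom or DESeq2, beside 0% of all genes in edgeR, and 0 of 9 had an unadjusted p-value below 0.05, beside 1.34%. The differences ran from -0.48 for Psen2 (SE 0.37) to 0.22 for Ncstn (SE 0.17), and without the 5 libraries with few genes detected these became -0.08 and -0.07. Averaged over both treatments, 0 of 9 passed in any of these tools and 0 of 9 had an unadjusted p-value below 0.05, beside 0.00862% and 5.07% of all genes. The fitted values then lay between -0.16 for Psenen and 0.27 for Aph1a, which became -0.15 and -0.07 without these libraries.

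Cmpd60 was next compared with vehicle within each genotype. In the APPSWE brains 0 of 9 genes passed the adjusted threshold and 0 of 9 an unadjusted p-value of 0.05 in edgeR, beside 0% and 9.46% of all genes. In the littermate brains the counts were also 0 of 9 and 0 of 9, beside 0% and 3.67%. limma-voom and DESeq2 called none of the 9 in either genotype.

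App in the Cmpd60-treated APPSWE brains was at 2035, 2044, 2201 and 2260 CPM, within reach of the vehicle values given above. The difference was -0.07 (SE 0.07, 95% interval -0.21 to 0.06) in APPSWE and -0.02 (SE 0.06, 95% interval -0.15 to 0.11) in littermate brains. Mapt, at 620, 629, 638 and 659 CPM in the Cmpd60-treated APPSWE brains, differed by 0.05 (SE 0.07) and 0.05 (SE 0.07). Of these 4 intervals, that of App in the APPSWE brains reached farthest from 0.

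The intervals were wider for the less abundant gamma-secretase genes. Psen2 in the littermates was at 2.65, 12.7, 13.1, 13.5 and 18.5 CPM with vehicle and at 13.9, 14.3, 14.4, 15.0 and 30.5 CPM with Cmpd60. Its lowest value came from library s155 and its highest from library s152, both with few genes detected. The value of s155 rested on 66 reads, for which counting error alone allows 2.05 to 3.38 CPM (exact Poisson, 95%), and that of s152 on 990 reads, which allow 28.6 to 32.5 CPM. The fitted difference of 0.54 (SE 0.35, adjusted p = 0.999) became -0.01 without the 5 libraries.

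In the APPSWE brains, Aph1a was at 41.5, 42.1, 44.5 and 46.8 CPM with Cmpd60, all within the vehicle range of 37.0 to 87.7 CPM. Its difference of -0.37 (SE 0.22, adjusted p = 0.649) became 0.20 without the 5 libraries. Psenen was at 11.4, 21.8, 25.2 and 27.6 CPM with Cmpd60, with a difference of -0.38 (SE 0.24, adjusted p = 0.702) that became -0.06 without them. The lowest of these values was that of library s141.

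The difference between the 2 Cmpd60 responses was tested as an interaction, and 0 of 9 genes passed in edgeR, limma-voom or DESeq2, beside 0% of all genes, with 0 of 9 at an unadjusted p-value below 0.05, beside 5.09%. The fitted values ran from -0.73 for Psen2 (SE 0.51) to 0.29 for Ncstn (SE 0.23), with 0.00 for Mapt (SE 0.10). Without the 5 libraries with few genes detected, Psen2 turned to 0.17, Ncstn was at 0.12 and Mapt at -0.02.

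**Figure D2:**
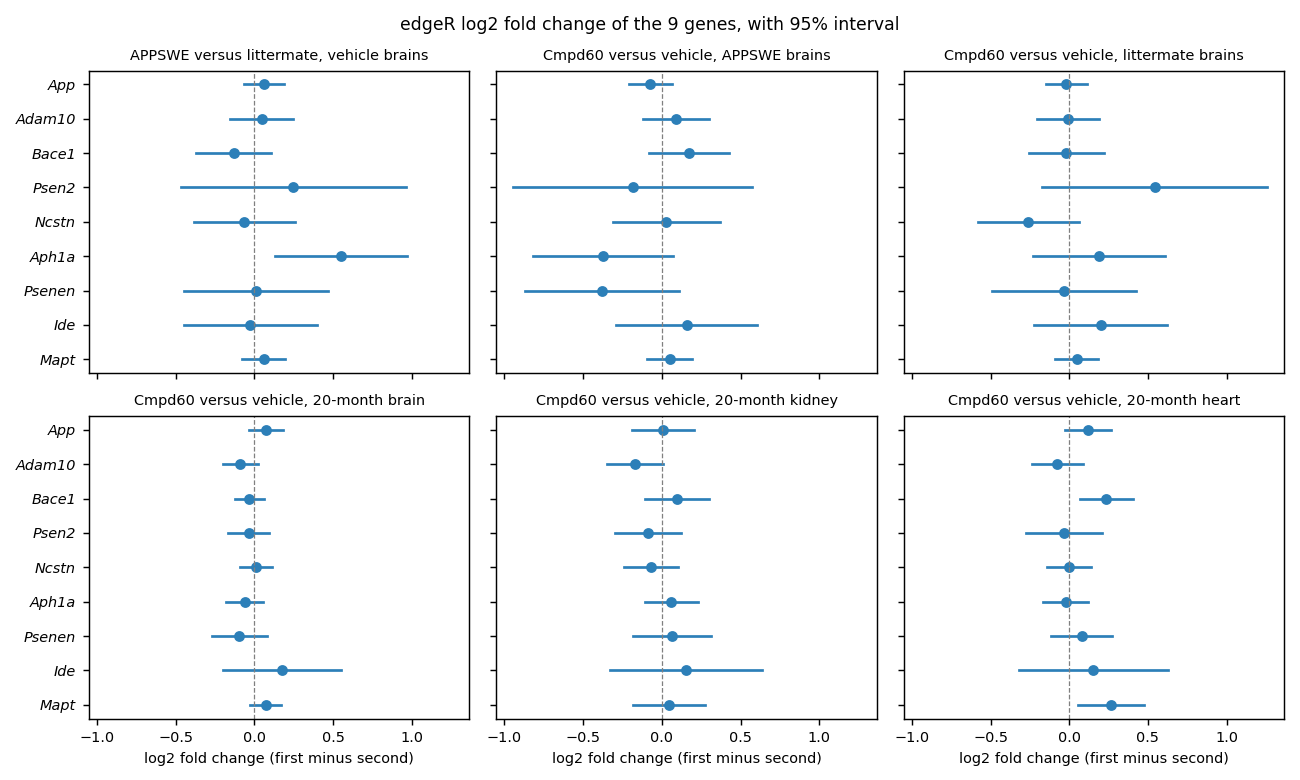
Log2 fold changes of the 9 genes (first named group minus second) with their 95% intervals from edgeR, in 6 comparisons. The intervals are wide for Psen2, Aph1a, Psenen and Ide in the 6 to 7 month brains, whereas in the 20-month tissues that of Ide is the widest.

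The spread of single genes was set beside the number of genes detected. In the 14 other assigned 6 to 7 month brains, Psen2 was at 10.3 to 18.5 CPM, Aph1a at 37.0 to 48.1 CPM and Psenen at 21.8 to 33.0 CPM. Of the 5 libraries with few genes detected, 4 were outside this range for Psen2, 4 for Psenen and 3 for Aph1a. For Bace1, Ncstn, Adam10 and Ide the number was 2 each, and for App and Mapt it was 0. The pooled SD within groups, on the log2 scale, was 0.65 for Psen2, 0.37 for Aph1a and 0.38 for Psenen, against 0.17, 0.11 and 0.17 without these libraries. App had a pooled SD of 0.08 with and without them, and of 0.08 in the 20-month brains. Some of the libraries with few genes detected thus lay outside the range of the 14 others in all of the 9 genes but App and Mapt. App and Mapt had the highest CPM of the 9. Level alone did not mark such genes, since Prnp was at about the level of Mapt. Prnp was at 541, 561 and 522 CPM in s140, s141 and s155, below the lowest of the 14 other brains, 581 CPM. Libraries s146 and s152, at 592 and 651 CPM, lay within the range of those 14.

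**Figure D3:**
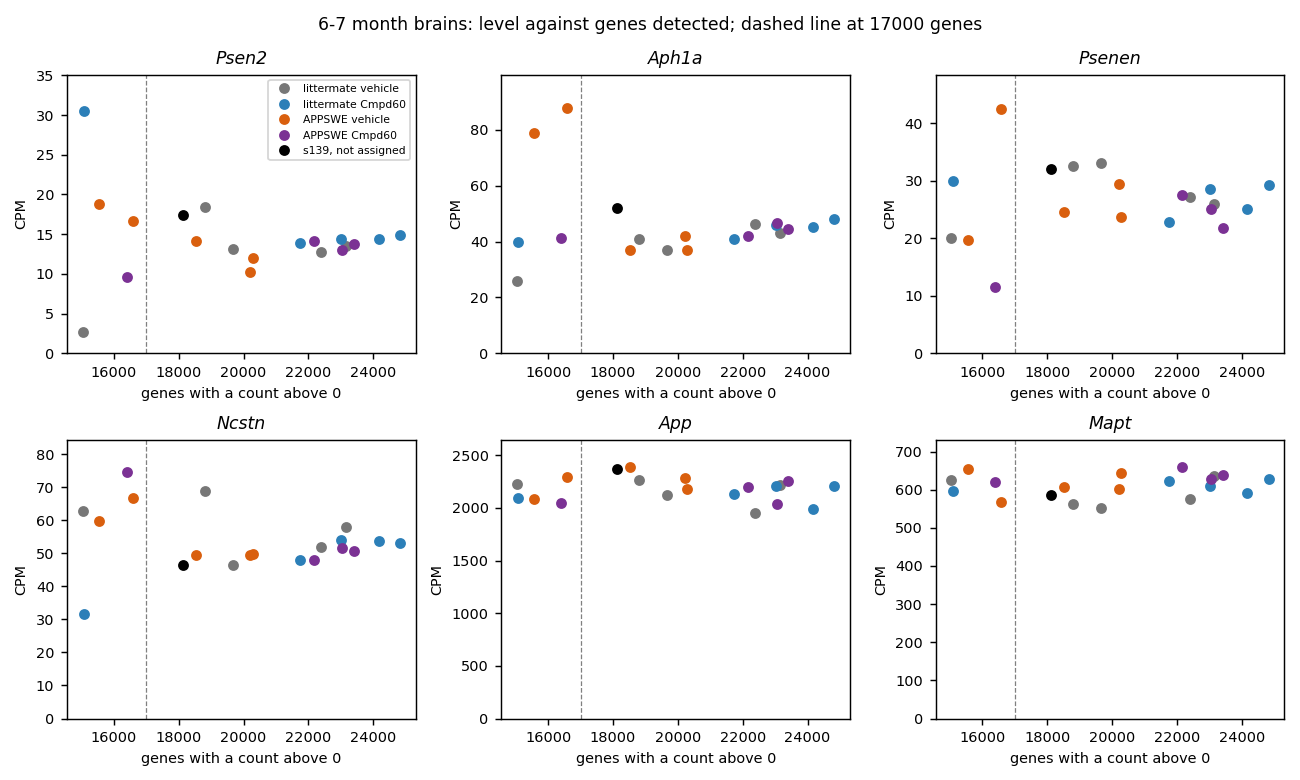
CPM of 6 genes against the number of genes with a count above 0 in each 6 to 7 month brain, with the dashed line at 17000 genes. Left of the line the points of Psen2 range from 2.65 to 30.5 CPM and those of Aph1a from 25.9 to 87.7 CPM, and those of App and Mapt stay within the range to its right.

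In the 20-month brain, where libraries of a group differed less, Cmpd60 was compared with vehicle again. None of the 9 genes passed the adjusted threshold in edgeR, limma-voom or DESeq2, beside 0.0205% of all genes in edgeR. At an unadjusted p-value below 0.05 there were 0 of 9, beside 13.8% of all genes. The 95% interval of Ide ran from -0.20 to 0.55 on the log2 scale, and of the other 8 genes that of Psenen, from -0.27 to 0.08, reached farthest from 0.

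App had a lowest, median and highest value of 1432, 1502 and 1711 CPM in the 6 vehicle brains and of 1542, 1615 and 1752 CPM in the 6 Cmpd60 brains, with overlap. Its difference was 0.07 (SE 0.05, 95% interval -0.03 to 0.18). Mapt, at 478, 535 and 590 CPM with vehicle and 555, 578 and 591 CPM with Cmpd60, differed by 0.07 (SE 0.05, 95% interval -0.03 to 0.17). The summed neuronal markers had medians of 3639 CPM with vehicle and 4002 CPM with Cmpd60, with overlapping ranges, and their part in these values was not tested. In bulk tissue, fewer cells of a type and less RNA per cell cannot be told apart.

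The secretase genes of the 20-month brain were close between treatments. Bace1 was at 96.0 ± 4.88 CPM (SD, n = 6) with vehicle and 95.8 ± 3.13 CPM (SD, n = 6) with Cmpd60. Adam10 was at 88.9 ± 4.64 CPM (SD, n = 6) and 85.3 ± 6.37 CPM (SD, n = 6). The gamma-secretase genes differed by -0.10 for Psenen (SE 0.08), -0.06 for Aph1a (SE 0.06), -0.04 for Psen2 (SE 0.06) and 0.01 for Ncstn (SE 0.05).

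In the kidney, 0 of 9 genes passed the adjusted threshold in edgeR, limma-voom or DESeq2, beside 0.3% of all genes in edgeR, and 0 of 9 had an unadjusted p-value below 0.05, beside 11.3%. Adam10 came nearest, at 98.6, 101, 111, 121 and 129 CPM in the 5 vehicle kidneys and at a lowest, median and highest of 95.8, 99.3 and 107 CPM in the 6 Cmpd60 kidneys. The difference was -0.17 (SE 0.08, adjusted p = 0.465), and 2 of the 5 vehicle kidneys lay within the Cmpd60 range. App, at 1467 ± 93.2 CPM (SD, n = 5) and 1480 ± 91.2 CPM (SD, n = 6), differed by 0.01 (SE 0.09).

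In the heart, 0 of 9 genes passed the adjusted threshold in edgeR, limma-voom or DESeq2, beside 1.18% of all genes in edgeR, and 2 of 9, Bace1 and Mapt, had an unadjusted p-value below 0.05, beside 13.5%. Bace1 had a lowest, median and highest value of 60.6, 71.9 and 76.4 CPM in the 6 vehicle hearts, and the 5 Cmpd60 hearts were at 70.2, 82.3, 84.5, 84.8 and 97.2 CPM. Of the Cmpd60 hearts, 4 were above all vehicle hearts and library 68, at 70.2 CPM, lay within the vehicle range. The difference was 0.24 (SE 0.08, adjusted p = 0.186), a fold of 1.18.

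Mapt was at 118, 141.96 and 174 CPM (lowest, median, highest) in the vehicle hearts and at 134, 158, 168, 183 and 212 CPM in the Cmpd60 hearts. The groups overlapped, with a difference of 0.27 (SE 0.10, adjusted p = 0.238). The summed neuronal markers, far below their brain level, were at 7.96 to 20.0 CPM in the vehicle and 9.48 to 32.4 CPM in the Cmpd60 hearts, and their part in the Mapt difference was not tested. App, at 317 ± 22.0 CPM (SD, n = 6) and 347 ± 22.9 CPM (SD, n = 5), differed by 0.12 (SE 0.07, adjusted p = 0.481).

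Differences in the Cmpd60 response between tissues were tested in a fit of all 34 libraries. Between brain and kidney, brain and heart, and kidney and heart, 0 of 9 genes passed each time in edgeR, limma-voom and DESeq2, beside 0.0885%, 0.0517% and 0.35% of all genes in edgeR. The numbers at an unadjusted p-value below 0.05 were 0, 1 and 0, beside 10%, 9.08% and 11.7%. The 1 gene was Bace1, whose response was lower in the brain than in the heart by 0.25 on the log2 scale (difference -0.25, SE 0.11, adjusted p = 0.469).

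The levels of the 9 genes were then compared between the vehicle-treated tissues at 20 months, where most genes of the genome differ. The tissues came from the same cohort, so libraries of different tissues can share a mouse, and the fits across tissues treat all libraries as independent because the labels do not give the mouse. Between brain and kidney 8 of 9 genes passed the adjusted threshold, beside 76.6% of all genes, between brain and heart 7 of 9, beside 76%, and between kidney and heart 7 of 9, beside 61.6%. The shares of the 9 genes were thus near those of all genes. The median fitted difference of all genes was 0.20 for brain against kidney and 0.34 for brain against heart, and the values below are not corrected for these shifts.

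App was at similar levels in the kidney and the brain, where the call of a difference depended on the normalization, and far lower in the heart. It was at 1525 ± 98.6 CPM (SD, n = 6) in brain, 1467 ± 93.2 CPM (SD, n = 5) in kidney and 317 ± 22.0 CPM (SD, n = 6) in heart. Brain and kidney differed by 0.08 (SE 0.07, adjusted p = 0.267) with edgeR and TMM, whereas with DESeq2, or its size factors in edgeR, App was called higher in brain by 0.16. Brain and heart differed by 2.26 (SE 0.07, adjusted p = 4.58e-18), a fold of 4.79.

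Mapt and Bace1 were higher in the brain than in both other tissues. Mapt was at 535 ± 36.1 CPM (SD, n = 6) in brain, 190 ± 19.1 CPM (SD, n = 5) in kidney and 141 ± 19.5 CPM (SD, n = 6) in heart. The kidney and heart values stood beside low values of the neuronal markers Rbfox3 and Snap25. Rbfox3, a nuclear protein of neurons, was at most 0.59 CPM in any kidney and 0.27 CPM in any heart. The synaptic gene Snap25 was at most 0.04 and 5.60 CPM. The marker sum given above for the hearts also holds the neuronal markers Syt1 and Stmn2 and was higher than these values. Its part in the Mapt levels was not tested. Bace1 was at 96.0 ± 4.88 CPM (SD, n = 6) in brain, 43.8 ± 1.57 CPM (SD, n = 5) in kidney and 70.4 ± 6.25 CPM (SD, n = 6) in heart. Brain exceeded kidney by 1.52 (SE 0.09) for Mapt and 1.16 (SE 0.07) for Bace1, and heart by 1.92 (SE 0.09) and 0.44 (SE 0.06), and all 4 differences passed.

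The gamma-secretase genes among the 9 ran the other way. Aph1a was at 38.5 ± 2.61 CPM (SD, n = 6) in brain, 100.1 ± 5.77 CPM (SD, n = 5) in kidney and 84.7 ± 5.85 CPM (SD, n = 6) in heart, with no overlap of brain with the others, and brain was lower by -1.35 (SE 0.06) and -1.15 (SE 0.06) on the log2 scale. Ncstn was at 45.2 ± 2.18, 88.9 ± 4.55 and 65.98 ± 4.94 CPM (SD, n = 6, 5 and 6), with brain lower by -0.95 (SE 0.06) and -0.56 (SE 0.06). Psenen was lower in brain than in kidney by -0.52 (SE 0.09) and than in heart by -0.24 (SE 0.09, adjusted p = 0.0201), the latter not passing with DESeq2. Psen2 was lower in brain than in kidney by -0.28 (SE 0.11, adjusted p = 0.0192) and did not pass against heart (-0.13, SE 0.10, adjusted p = 0.246).

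Adam10 was lower in brain than in kidney by -0.31 (SE 0.08) and higher in kidney than in heart by 0.38 (SE 0.08), and brain and heart did not pass (0.07, SE 0.07, adjusted p = 0.368). Ide was lower in brain than in kidney by -1.32 (SE 0.23) and than in heart by -1.52 (SE 0.23), and kidney and heart did not pass (-0.20, SE 0.23, adjusted p = 0.487). Between kidney and heart, App differed by 2.18 (SE 0.07) and Bace1 by -0.72 (SE 0.06), and Ncstn, Mapt, Psenen and Aph1a were higher in kidney by 0.21 to 0.40.

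**Figure D4:**
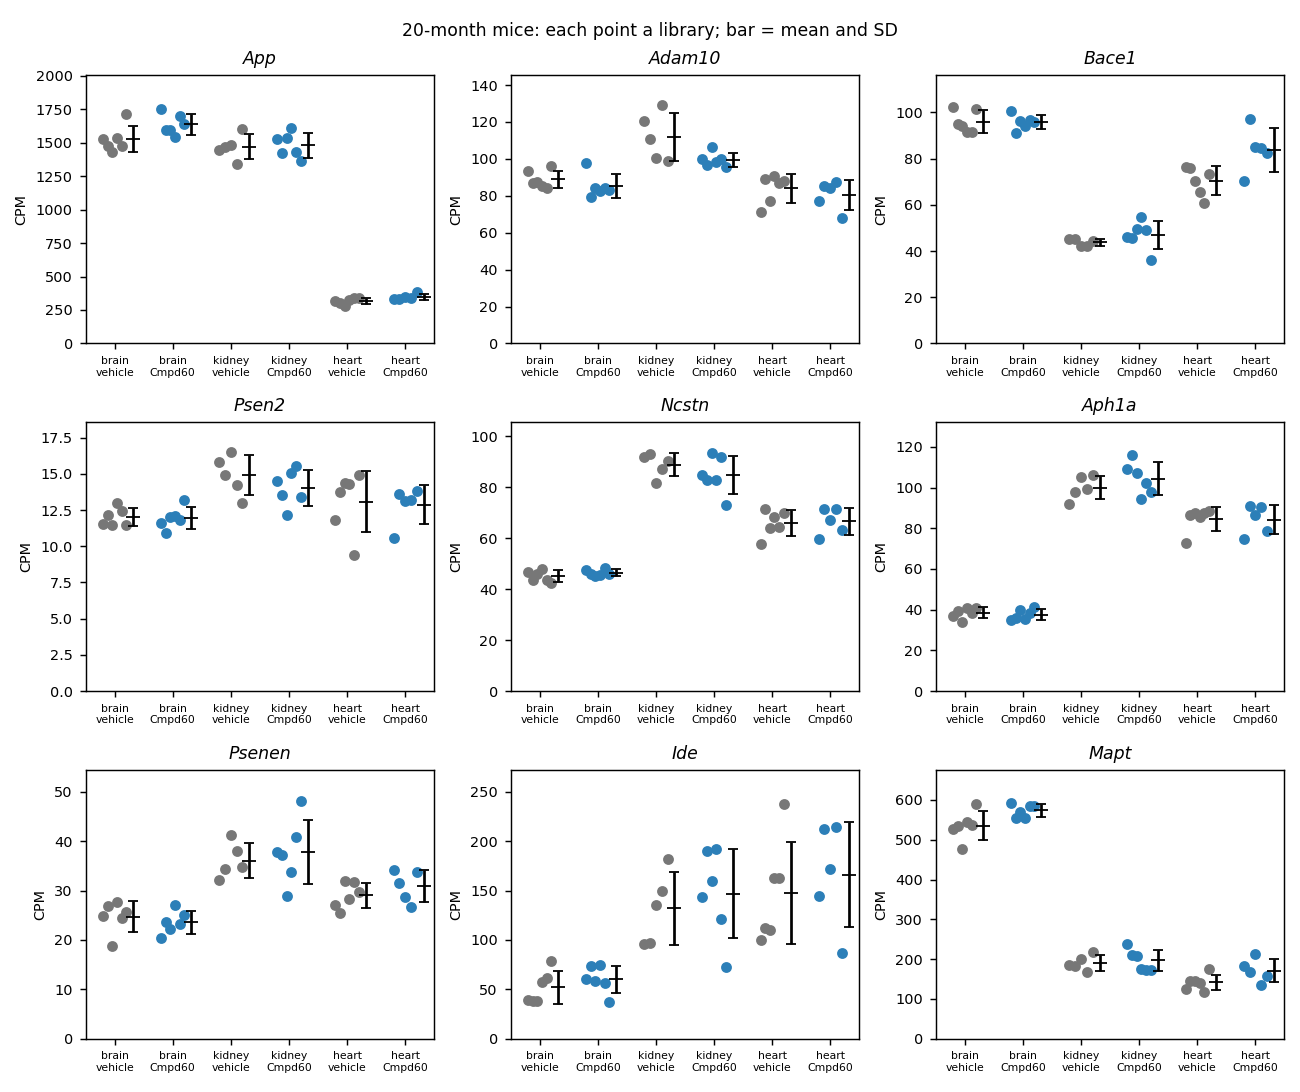
CPM of the 9 genes in 20-month brain, kidney and heart, each point a library, grey for vehicle and blue for Cmpd60, with bars for the mean and SD. Vehicle means of App are 1525, 1467 and 317 CPM and those of Aph1a 38.5, 100.1 and 84.7 CPM, and the vehicle and Cmpd60 points of each tissue overlap for every gene.

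Divided by exon length, which allows levels of different genes to be compared, App stood first in all 3 tissues, at 454 ± 29.4 CPM per kb (SD, n = 6) in brain, 437 ± 27.7 (SD, n = 5) in kidney and 94.2 ± 6.56 (SD, n = 6) in heart. In brain Mapt followed at 71.1 ± 4.79, then Psenen at 38.2 ± 4.88, Adam10 at 18.0 ± 0.94, Bace1 at 15.1 ± 0.77, Aph1a at 13.4 ± 0.91, Ncstn at 11.4 ± 0.55, Ide at 8.92 ± 2.85 and Psen2 at 3.13 ± 0.16 CPM per kb (SD, n = 6). The ranges of neighbours in this order overlapped for Aph1a and Ncstn and for Ncstn and Ide, and for no other neighbours. Within single libraries, Aph1a was above Ncstn in 6 of 6 brains and Ncstn above Ide in 5 of 6. Psen2 was last in kidney and heart too, at 3.89 ± 0.36 (SD, n = 5) and 3.41 ± 0.55 CPM per kb (SD, n = 6). In kidney Mapt, Adam10, Ide and Ncstn overlapped, at 22.4 to 25.2 CPM per kb. In heart the overlaps ran from Aph1a through Ide, Mapt and Adam10 to Ncstn. Within single libraries, the first of each of these neighbours was the higher in 3 of 5 kidneys and in 4 or 5 of 6 hearts. Exon lengths were those of GENCODE M1, and the annotation behind the counts may differ.

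A list of 38 further genes of the pathway was examined beside the 9. In the 9 comparisons of genotype or Cmpd60, 0 of the genes tested passed the adjusted threshold in edgeR, and from 0 to 6 had an unadjusted p-value below 0.05, with 6 of 37 in the heart, beside 13.5% of all genes there. The smallest p-values in the vehicle-treated APPSWE brains were those of Cdk5r1, which encodes the p35 activator of the tau kinase Cdk5 (-0.19, SE 0.10, adjusted p = 0.623), and Ttbk1, a tau kinase (-0.17, SE 0.11, adjusted p = 0.760). In the Cmpd60-treated brains and in the mean of both treatments they were those of Aph1b, a further APH1 gene (0.57, SE 0.32, and 0.50, SE 0.22), and the kinase gene Fyn (0.20, SE 0.12, and 0.14, SE 0.08). The smallest adjusted p-value of a pathway gene in these comparisons of genotype was 0.623.

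For Cmpd60 in the APPSWE brains, the smallest p-values were those of Aplp1, an App relative (-0.19, SE 0.09, adjusted p = 0.504), and the sorting receptor gene Sorl1 (0.20, SE 0.10, adjusted p = 0.515). In littermates, Ppp2r2a, a regulatory subunit of the tau phosphatase PP2A (0.28, SE 0.14, adjusted p = 0.999), and Aplp1 (-0.14, SE 0.08) led, and in the interaction Itm2c (0.22, SE 0.13) and Cdk5r1 (0.23, SE 0.15). In the 20-month brain they were Apba2, an adaptor that binds App (0.17, SE 0.06, adjusted p = 0.214), and Ppp2ca, the catalytic subunit of PP2A (-0.10, SE 0.05, adjusted p = 0.357). None of these passed the adjusted threshold.

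In the kidney Itm2c, a relative of the BRI2 gene (0.26, SE 0.09, adjusted p = 0.275), and the metalloprotease gene Adam9 (-0.29, SE 0.10, adjusted p = 0.304) had the smallest p-values, and in the heart Apba3 (-0.19, SE 0.06, adjusted p = 0.152) and Itm2c (0.19, SE 0.07, adjusted p = 0.205). In the differences of response 0 of 38 passed in each, and the smallest p-values were those of Cdk5r1 and Adam9 for brain against kidney, Apba3 and Cdk5 for brain against heart, and Adam9 and Cdk5 for kidney against heart, where Adam9 reached -0.42 (SE 0.11, adjusted p = 0.0902).

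Between tissues, 36 of 38 pathway genes passed for brain against kidney, beside 76.6% of all genes, with 27 higher and 9 lower in brain, beside 41.7% and 34.9%. For brain against heart 37 of 38 passed, beside 76%, with 27 higher and 10 lower in brain, beside 44.6% and 31.4%. For kidney against heart 35 of 38 passed, beside 61.6%, with 14 higher and 21 lower in kidney, beside 32.8% and 28.8%. The medians of the list were 1.08, 0.90 and -0.26 beside 0.20, 0.34 and 0.00 for all genes. Of the 15 tau kinase and phosphatase genes, 13 were higher in brain than in kidney, beside 41.7% of all genes, led by Cdk5r1, Mark1 and Ttbk1, with Gsk3b by 1.36 (SE 0.06) and Cdk5 by 1.58 (SE 0.08), and 13 were higher than in heart, beside 44.6%. Of the other genes of microtubule-associated proteins, Map1a, Map1b and Map2 were higher in brain than in kidney by 6.21 to 7.98. Against heart they were higher by 4.91 to 7.53, compared with 1.52 and 1.92 for Mapt against kidney and heart. Map4 was higher in brain than in kidney by 2.20 (SE 0.08) and lower than in heart by -0.39 (SE 0.07).

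The remaining pathway genes differed in both directions between tissues. Aplp1 was higher in brain by 6.47 (SE 0.14) and 7.38 (SE 0.14) than in kidney and heart, and its relative Aplp2 by 0.27 (SE 0.06) and 0.19 (SE 0.06). The other secretase genes Adam9 and Adam17 were lower in brain than in both tissues, by -1.38 and -1.48 against kidney and -0.86 and -1.68 against heart. Among the further APH1 genes of gamma-secretase, Aph1b was higher in brain by 0.66 and 1.21. Aph1c was lower in brain than in kidney by -2.10 (SE 0.14) and higher than in heart by 2.24 (SE 0.16). Aph1b and Aph1c are near copies between which reads may be split. Mme, which encodes the amyloid-degrading protease neprilysin, was lower in brain than in kidney by -3.90 (SE 0.10) and than in heart by -0.95 (SE 0.10).

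Ide varied between libraries of the same tissue and treatment more than any other of the 9 genes at 20 months. Its highest value was 1.89 to 2.63 times its lowest within each of the 6 groups, whereas for the other 8 genes the ratio stayed between 1.07 and 1.67. The pooled SD within groups on the log2 scale was 0.41 in brain, 0.47 in kidney and 0.51 in heart, compared with 0.06 to 0.17, 0.09 to 0.21 and 0.10 to 0.22 for the other genes. This description was added after the values had been seen.

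In vehicle brains, libraries 27, 28 and 29 were at 39.4, 37.5 and 38.0 CPM, libraries 30 and 31 at 56.9 and 61.2 CPM, and library 32 at 78.6 CPM. In vehicle hearts, libraries 62, 63 and 64 were at 100.1, 112 and 110 CPM, libraries 65 and 66 at 163 and 163 CPM, and library 67 at 238 CPM. In vehicle kidneys, libraries 45 and 46 were at 96.2 and 96.3 CPM, libraries 47 and 48 at 135 and 150 CPM, and library 49 at 182 CPM. In each tissue the libraries of lower number were the lowest and the last was the highest.

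With Cmpd60, brain libraries 33 to 38 were at 60.1, 73.8, 58.7, 74.2, 55.8 and 36.6 CPM. Kidney libraries 50 to 55 were at 143.92, 190, 160, 192, 122 and 73.0 CPM, and heart libraries 68 to 72 at 144.71, 213, 172, 214 and 86.6 CPM. In each tissue the second and the fourth of these libraries were the highest and the last was the lowest. The labels do not say which libraries of different tissues came from the same mouse.

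Over the 34 libraries, after subtraction of each tissue's mean, the gene most like Ide among 15874 genes was Btaf1 (Pearson r = 0.88 of log2 CPM), which encodes a TBP-associated factor, followed by Fgfbp3 (r = 0.76), which encodes a binding protein of fibroblast growth factors. Both lie near Ide on chromosome 19, in NCBIM37 at chr19:37000569-37088547 and chr19:36992040-36994105, with Ide at chr19:37343233-37412342. Cpeb3 and Marchf5, which lie between Btaf1 and Ide, had r = 0.22 and 0.25, and Tnks2 and Kif11 on either side had 0.27 and 0.07. In brain, Btaf1 ranged from 27.8 to 61.6 CPM and Fgfbp3 from 3.82 to 8.20 CPM, 2.22 and 2.15 times, compared with 2.15 times for Ide and 1.22 times for Marchf5. Fgfbp3 rested on 14 to 78 reads per heart. As background, a gained stretch holding Ide and Fgfbp3 is known to differ in copy number between C57BL/6J mice. DNA was not measured in these libraries, and its part in the values was not tested.

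The spread of Ide set the width of its intervals for Cmpd60. The difference was 0.18 (SE 0.18) in brain, 0.15 (SE 0.23) in kidney and 0.15 (SE 0.22) in heart. Leaving out 1 library at a time moved it from 0.10 (without library 28) to 0.33 (without 32) in brain, from 0.06 (without 46) to 0.30 (without 49) in kidney and from 0.04 (without 71) to 0.32 (without 67) in heart. In the 14 brains of 6 to 7 months with more genes detected, Ide was at 38.9 to 60.0 CPM.

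**Figure D5:**
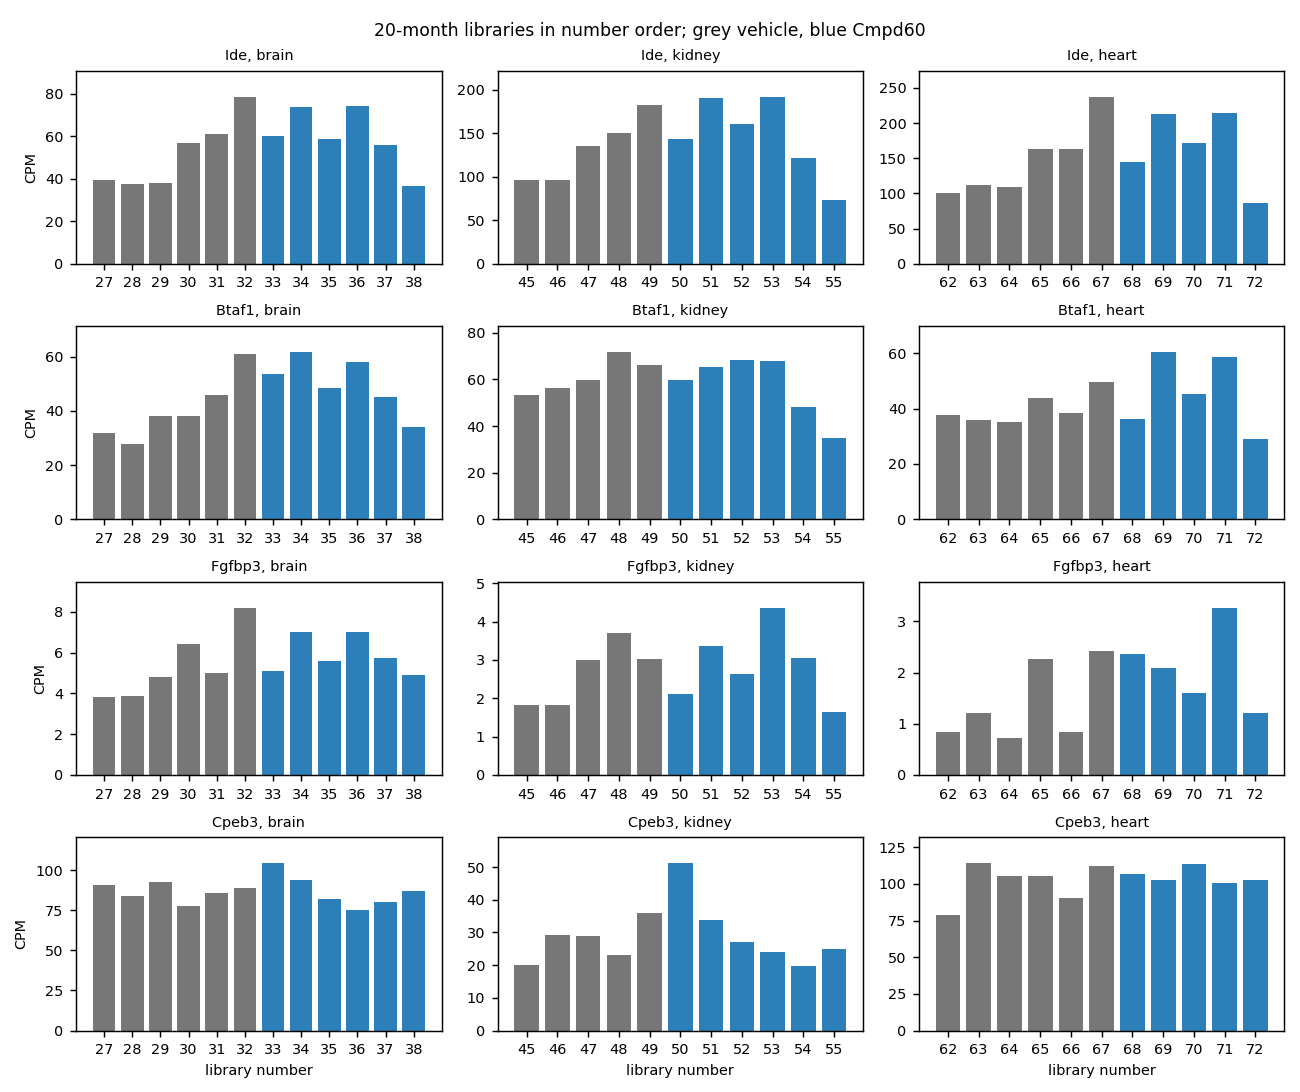
CPM of Ide, Btaf1, Fgfbp3 and Cpeb3 in each 20-month library in number order, grey for vehicle and blue for Cmpd60, on axes that start at 0. Ide in brain runs from 36.6 to 78.6 CPM and Btaf1 and Fgfbp3 follow its ups and downs over the 34 libraries more closely (r = 0.88 and 0.76) than Cpeb3 (r = 0.22), which lies between Btaf1 and Ide on the chromosome.

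The genes whose pattern was most like that of App over the 34 libraries of 20 months were Lzts3, Chrna4 and Ildr2 (Pearson r of log2 CPM 0.996, 0.995 and 0.994). For Mapt they were 1110051M20Rik, Trim32 and ENSMUSG00000094910 (r = 0.986, 0.986 and 0.985). These correlations are across 3 tissues and rest mainly on the differences between them. Over the 19 assigned brains of 6 to 7 months, which share 1 tissue, they were Gm4735, Map7d1 and Eno1b for App (r = 0.82, 0.81 and 0.77) and Stk11ip, Trim9 and Rtn3 for Mapt (r = 0.72, 0.71 and 0.70), among 15094 genes compared. Eno1b is a near copy of Eno1, so its count is uncertain.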

How the data were processed

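Brain, kidney and heart of 20-month mice (34 libraries) and brains of APPSWE and littermate mice of 6 to 7 months (20 libraries) were measured by mRNA sequencing with oligo-dT selection and a directional kit. Per the labels, the authors used FastQC, Trimmomatic 0.32, HISAT2 2.1.0 and HTSeq 0.11.0 and deposited the counts of reads per Ensembl gene, without normalization. Reads were counted by direction, per the study's methods, and the genome build is not given in the sources used here. Of the 54232 genes in each library 32651 were named, 3070 of them through RefSeq synonyms (GRCm38.p6). The 5 summary lines, of which reads on no gene took 15.4% to 22.1% of all reads, were left out. Library totals bound the precision. Intervals of differences come from the edgeR fits and include the spread between libraries, whereas Poisson intervals of single values cover counting error only.

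Groups were taken from sample titles and source names. After TMM scaling, edgeR 4.0.16 (R 4.3.3) fitted quasi-likelihood models to genes that exceeded 2 counts in 3 or more libraries of a fit, with Benjamini-Hochberg adjustment over all genes. The 19 assigned 6 to 7 month brains were fitted together, each 20-month tissue alone for Cmpd60, the 17 vehicle libraries together for tissues and the 34 libraries for differences in response. Log2 CPM used a prior count of 2. Alternatives were limma-voom (limma 3.58.1), DESeq2 1.42.0, its size factors in edgeR, other filters, genes detected as a covariate, only the groups compared, library s139 as vehicle or Cmpd60, and each library left out. Leaving out the 5 libraries with fewer than 17000 genes detected was chosen after seeing the data. The tests were checked on simulated data in which 200 genes changed 2-fold. Of these, 51% were recovered for APPSWE versus littermate in vehicle brains, and 84.5% to 93% in the 20-month comparisons simulated. The simulated spread was that of genes of like level, not that of the members themselves.

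The members and gene lists were chosen with earlier results of these data known. Named were the 9 members and, of the 38 pathway genes, those past the adjusted threshold or, where none passed, the 2 with the smallest p-value. Where 35 or more passed, they are given by role with examples. Most like App or Mapt were the 3 genes with the highest Pearson correlation of log2 CPM among genes with a mean of at least 1 CPM.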

Additional observations from a re-analysis of the deposited data

Results flagged for a closer look

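Of 90 groups of libraries (9 genes in 10 groups), 10 held a library whose gap to the nearest other passed Dixon's 95% limit, where chance flags about 1 in 20. Of these, 6 were in libraries with fewer than 17000 genes detected. In the vehicle APPSWE brains, library s140 was lowest for Bace1 at 86.1 CPM (others 119 to 132) and for Ide at 19.5 CPM (others 46.7 to 56.3). For Psen2, littermate library s155 with vehicle was lowest at 2.65 CPM (others 12.7 to 18.5), and littermate library s152 with Cmpd60 was highest at 30.5 CPM (others 13.9 to 15.0). For Ncstn, library s152 was lowest at 31.7 CPM (others 47.8 to 53.9), and APPSWE library s141 with Cmpd60 was highest at 74.5 CPM (others 47.9 to 51.6).

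The other 4 were in 20-month tissues. Psen2 was lowest at 10.5 CPM in Cmpd60 heart 68 (others 13.1 to 13.8), Aph1a at 72.9 CPM in vehicle heart 62 (others 85.4 to 88.4) and Psenen at 18.8 CPM in vehicle brain 29 (others 24.4 to 27.6). Adam10 was highest at 97.7 CPM in Cmpd60 brain 33 (others 79.4 to 84.3).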

How the results depend on the processing

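The count of 0 of 9 genes held in the 9 comparisons of genotype or Cmpd60 and in the 3 differences of response under every alternative run, including each library left out. The lowest adjusted p-value of a member in these comparisons was 0.0775, for Bace1 in the heart without library 68. Between tissues the counts of 8, 7 and 7 moved to 8 to 9, 6 to 7 and 7, and with a library left out to 7 to 8, 6 to 8 and 6 to 7. With DESeq2 and its size factors App passed between brain and kidney and Psenen did not between brain and heart (adjusted p = 0.0663 and 0.0678). Psen2 between brain and kidney did not pass with the size factors (0.0604) or without kidney 47 (0.160), nor Psenen between kidney and heart without kidney 47 (0.0506) or between brain and heart without brain 29 (0.0520), and Psen2 passed between brain and heart without heart 66 (0.0277). There were 2862 values of members under alternatives. The shift was set against the SE only for values called neither in the main fit nor under the alternative. Of these, 21 moved by more than their SE, 15 of them without the 5 libraries with few genes detected. For called values only the call and the sign were followed, and 0 changed sign.

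Counts over all genes moved more. For Cmpd60, DESeq2 gave 429 for 5 genes in the 20-month brain, 429 for 62 in the kidney and 746 for 229 in the heart, and leaving out a library gave 1 to 372, 20 to 131 and 36 to 247. Without a filter the brain gave 102 and the kidney 94, and limma-voom gave 2 in the brain. In the 6 to 7 month brains the 6 counts of 0 or 2 ran from 0 to 22 under alternatives. For the differences of response, DESeq2 gave 269, 187 and 515 against 24, 14 and 95, and leaving out a library gave 15 to 94, 1 to 36 and 59 to 180. The causes were not tested.

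No paired analysis was possible because the library numbers are unique and, although brain, kidney and heart came from the same cohort, neither the labels nor the study's methods say which libraries share a mouse.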

Other observations

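Library s139, an APPSWE brain left out of every group, was at 2368 CPM for App and 587 CPM for Mapt. It was at 105 CPM for Adam10, 122 CPM for Bace1, 17.4 CPM for Psen2, 46.4 CPM for Ncstn, 51.9 CPM for Aph1a, 32 CPM for Psenen and 50.8 CPM for Ide. Aph1a was thus above the 37.0 to 48.1 CPM of the 14 assigned brains with more genes detected, and Ncstn just below their lowest value of 46.5 CPM. With the library counted as vehicle or as Cmpd60, 0 of 9 genes passed in any of the 6 comparisons of these brains in edgeR.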
